A study of Mus musculus with 1 sample.

Results

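The poly(A) tails of Fth1, Ftl1 and Tfrc, the genes of iron storage and iron uptake, were described in mouse epiblast-like cells. Transcripts were taken by gene identifier, from reads with at least 7 sequencing passes around the circular molecule. All 3 genes had at least 1 transcript, with 594 of the 701976 transcripts of nuclear genes, and 2 of them reached the study's minimum of 10 transcripts. That minimum was reached by 7146 of 12816 nuclear genes.

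PAIso-seq, which copies each transcript together with its tail and reads it as one long molecule, was applied to wild-type cells of the ICR strain. The embryonic stem cells had been grown for 24 h as epiblast-like cells (24h-EpiLCs) on Matrigel in N2B27 medium with activin A, bFGF and KSR. The 1 sample analysed held 2 replicates marked by barcodes, numbered here by barcode since the labels do not match barcodes to replicate names. The labels do not say whether the replicates came from separate cultures, so their spread may be technical, and Cnot8 knockout cells were not analysed here.

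Iron enters most cells as transferrin, which is taken up by the transferrin receptor encoded by Tfrc. Iron that is not used at once is stored inside a hollow shell of ferritin, built from heavy chains (Fth1), which oxidise the iron, and light chains (Ftl1), which help the mineral core to form. Both sides are set largely after transcription: when iron is scarce, the iron regulatory proteins (Aco1 and Ireb2) bind hairpins in the mRNAs called iron-responsive elements, which blocks ferritin translation from the 5′ UTR and protects Tfrc mRNA from decay through the 3′ UTR.

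These hairpins were shown because they are what sets storage and uptake mRNAs apart. The pattern searched was a C, 5 bases, the loop CAGTGN and 5 bases that can pair with the first 5 (A with T, G with C, or G with T), on the sense strand of the spliced transcripts. In the GRCm38 build, Fth1 (ENSMUSG00000024661) lies at chr19:9980598-9985098 on the plus strand, Ftl1 (ENSMUSG00000050708) at chr7:45457944-45459884 on the minus strand and Tfrc (ENSMUSG00000022797) at chr16:32608920-32632794 on the plus strand. Fth1 and Ftl1 each held 1 match in the 5′ UTR, and Tfrc held 4 in the 3′ UTR. Each is printed 5′ to 3′ as 30 bases of the transcript, with the loop in capitals.
Fth1, 5′ UTR, chr19:9982732-9982761, plus strand: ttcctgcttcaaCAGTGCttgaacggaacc
Ftl1, 5′ UTR, chr7:45459778-45459807, minus strand: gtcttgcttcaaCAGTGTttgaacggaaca
Tfrc, 3′ UTR, chr16:32631219-32631248, plus strand: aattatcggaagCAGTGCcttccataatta
Tfrc, 3′ UTR, chr16:32631598-32631627, plus strand: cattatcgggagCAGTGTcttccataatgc
Tfrc, 3′ UTR, chr16:32631663-32631692, plus strand: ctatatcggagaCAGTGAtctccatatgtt
Tfrc, 3′ UTR, chr16:32631710-32631739, plus strand: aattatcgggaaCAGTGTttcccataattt
Over all coding genes, each searched in its longest coding transcript, the pattern was present in the 5′ UTR of 20 of 20251 (0.0988%). It was present in the 3′ UTR of 118 of 20915 (0.564%). The matches printed above were searched in the main transcripts instead, and that of Fth1 (929 nt) is not its longest coding transcript (1494 nt). Tfrc was the 1 gene with at least 3 matches in a 3′ UTR. A match is a stretch of letters, and binding of the iron regulatory proteins was not measured.

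Depth set how firmly each gene could be described. Replicate 1 gave 246316 nuclear transcripts and replicate 2 gave 455660, and the median tail was 91.0 nt in both. Very short tails of 1 to 5 nt were more frequent in replicate 2 (2.75%) than in replicate 1 (1.52%). The 8 markers of pluripotent epiblast-like cells had 37 to 303 transcripts each, 582 and 882 in all in the 2 replicates. Markers of other cells were at or near 0. The 6 fibroblast markers had 1 transcript in each replicate, the 5 primitive endoderm markers 0 and 1, and the 5 erythroid markers 0 in both. The 5 macrophage markers had 23 and 18, all of them from Cd68, with Adgre1, Csf1r, Ptprc and Lyz2 at 0.

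Fth1, the ferritin heavy chain, carried long tails, and its replicates were close to each other. Its 161 transcripts in replicate 1 had a geometric mean tail of 111 nt, and its 323 in replicate 2 had 108 nt (109.6 ± 1.84 nt, SD, n = 2). The median was 118 nt in replicate 1, with quartiles of 93 and 140 nt, and 116 nt in replicate 2, with quartiles of 89 and 140.5 nt. Single tails ran from 2 to 240 nt in replicate 1 and from 4 to 247 nt in replicate 2. In replicate 1, 78.3% of Fth1 tails were longer than 90 nt (95% Wilson interval 71.3 to 83.9), and 71.8% were in replicate 2 (66.7 to 76.5), against 50.6% of all nuclear transcripts in each. The Fth1 intervals lay above that level in both. Tails of at most 30 nt were nearly missing, with 1 of 161 and 2 of 323. The reads carry no molecular identifiers, so the intervals cover counting error only and 2 reads with the same tail may be copies of 1 molecule.

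Tfrc, the transferrin receptor, carried shorter tails than Fth1, and its replicates lay far apart. The geometric mean was 78.8 nt over 28 transcripts in replicate 1 and 45.6 nt over 81 in replicate 2 (62.2 ± 23.5 nt, SD, n = 2). The medians, which give less weight to very short tails, were 89.5 and 68.0 nt. Single tails ran from 19 to 224 nt in replicate 1, where 1 of 28 was over 200 nt, and from 1 to 202 nt in replicate 2. The 90% point of the tails was 159 nt for Tfrc and 158 nt for Fth1 in replicate 2, but 134 and 163 nt in replicate 1. Of the Tfrc tails, 14 of 28 were longer than 90 nt in replicate 1 (50%, interval 32.6 to 67.4) and 26 of 81 in replicate 2 (32.1%, 22.9 to 42.9). In replicate 1 the interval spans the 50.6% of all nuclear transcripts, and in replicate 2 it lies under that share.

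**Figure D1:**
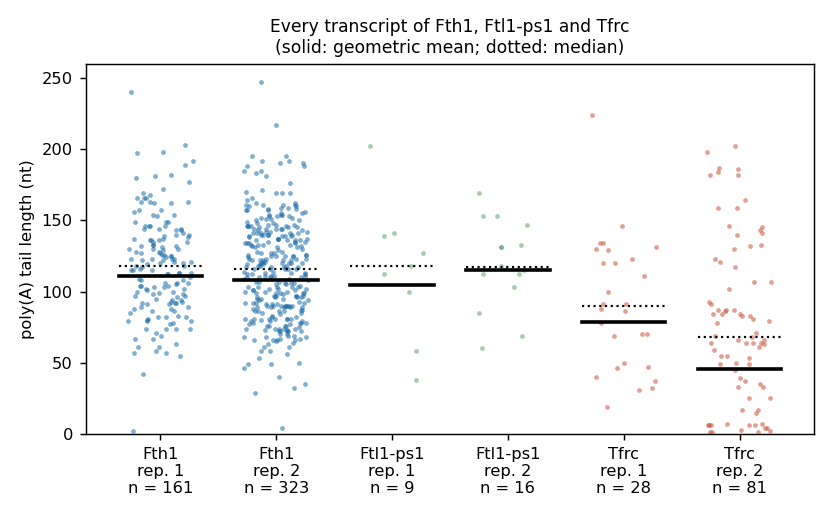
Poly(A) tail length in nt (vertical axis) of every transcript, one point each, of Fth1, Ftl1-ps1 (a copy of Ftl1) and Tfrc in replicates 1 and 2, with the geometric mean as a solid and the median as a dotted line. Fth1 had 3 of 484 tails at or under 30 nt, Ftl1-ps1 had 0 of 25, and Tfrc had 20 of 109, of which 19 were in replicate 2.

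The gene tail of Fth1, its geometric mean, exceeded that of Tfrc by 32.1 nt in replicate 1 and by 62.7 nt in replicate 2 (47.4 ± 21.6 nt, SD, n = 2). The difference had the same sign in both replicates and was larger than its spread between them. The exact two-sided sign-flip permutation test gave p = 0.5, which is the smallest p that 2 replicates allow, so the design cannot reach the usual threshold. The share of tails over 90 nt was higher for Fth1 in both replicates, and the Wilson intervals of Fth1 and Tfrc did not overlap in either. At the widest point, the pooled cumulative distributions of Fth1 and Tfrc were 0.405 apart, as a share of transcripts. Fth1 molecules had been read in more passes than Tfrc molecules, with medians of 55 and 50 against 32.5 and 38, and the part of pass number in the difference was not tested beyond the pass filters. Among reads with at least 15 passes, Fth1 exceeded Tfrc by 21.7 nt in the first replicate and by 70.6 nt in the second.

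**Figure D2:**
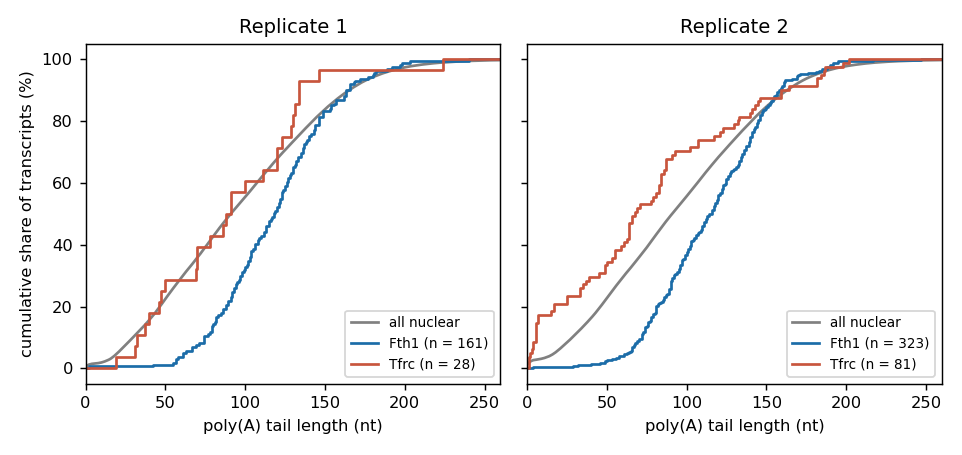
Cumulative share of transcripts (%, vertical axis) by poly(A) tail length (nt, horizontal axis) for Fth1, Tfrc and all nuclear transcripts, with replicate 1 on the left and replicate 2 on the right. The Fth1 curve runs to the right of the others up to about the upper quartile in both replicates. The Tfrc curve is close to all transcripts at the median in replicate 1 (89.5 and 91.0 nt) and starts with a step of short tails in replicate 2.

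The spread of Tfrc between replicates came with its shortest tails. Replicate 2 held 14 Tfrc tails under 15 nt among 81 (17.3%), and replicate 1 held 0 among 28, a count whose Wilson interval reaches 12.1%. Over tails of at least 15 nt alone, Tfrc had a geometric mean of 78.8 nt in replicate 1 and of 78.2 nt in replicate 2. Fth1 then had 114 and 109 nt, and exceeded Tfrc by 35.0 and 31.3 nt. That bound takes out exactly the short Tfrc tails by which the replicates differed, so the closeness of these values follows from the choice of tails. With tails of at least 6 nt Fth1 exceeded Tfrc by 35.0 and 47.9 nt, and by medians it did so by 28.5 and 48.0 nt.

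The 14 shortest Tfrc tails all had 1 to 7 nt, and none had 8 to 14 nt. Of these, 5 had exactly 6 nt and 2 had exactly 7 nt, a class that was picked after these tails were seen, so its shares and rank are a description only. Tails of 6 or 7 nt were rare elsewhere, with 0 of 484 Fth1 transcripts and 0.149% of all nuclear transcripts in replicate 2, against 8.64% of Tfrc transcripts in that replicate (4.25 to 16.8). Over both replicates, Tfrc ranked 3 among 1517 genes with at least 100 transcripts by the share of such tails, and 1287 of those genes had none. The annotated transcript Tfrc-201 contains 3 runs of at least 6 A: 1 of 7 in the coding sequence (chr16:32630212-32630218), 1 of 7 in the 3′ UTR (chr16:32631430-32631436) and 1 of 6 in the 3′ UTR (chr16:32631828-32631833). The main transcripts of Fth1 and Ftl1 contain 0 such runs, but they are much shorter (929 and 968 nt, against 4890 nt). Runs of A were not counted over other genes. The deposited table gives no read positions, so whether the short Tfrc tails lay at these runs was not tested.

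**Figure D3:**
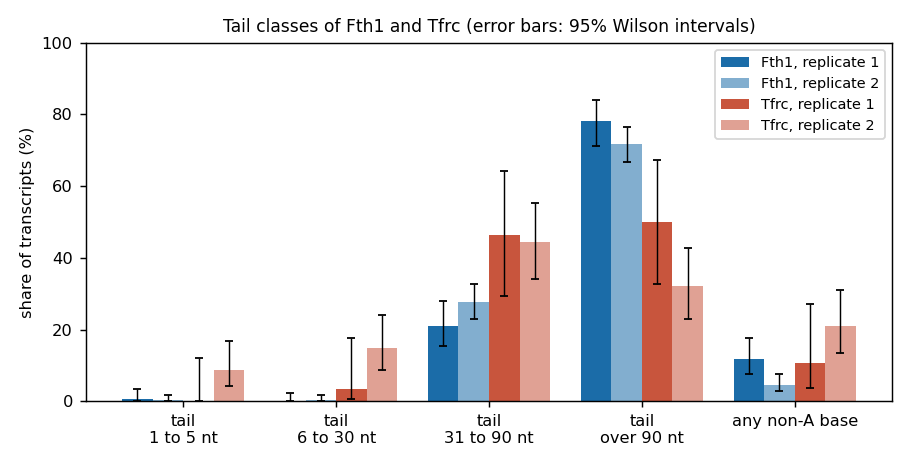
Share of transcripts (%, vertical axis) of Fth1 and Tfrc in each class of tail length and with any non-A base, by replicate, with 95% Wilson intervals as error bars. The bars for tails over 90 nt are higher for Fth1 (78.3% and 71.8%) than for Tfrc (50% and 32.1%), and tails of 1 to 5 nt reach 8.64% in Tfrc of replicate 2, against at most 0.621% in the other sets.

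Bases other than A were found inside some tails of both genes. Of Fth1 tails, 11.8% held one in replicate 1 (7.69 to 17.7) and 4.64% in replicate 2 (2.83 to 7.52), next to 12.2% and 9.55% of all nuclear transcripts. Of Tfrc tails, 10.7% held one in replicate 1 (3.71 to 27.2) and 21.0% in replicate 2 (13.5 to 31.1). The intervals of the 2 genes overlapped in replicate 1 and did not in replicate 2, so the order of the genes was not the same in both. A T as the last base, which reports addition of U to the mRNA end, was found in 6 and 6 Fth1 tails and in 1 and 3 Tfrc tails. The tails with a last T differed in length between the genes: 3 of the 4 in Tfrc had 17 or 19 nt, while the shortest in Fth1 had 79 nt in replicate 1 and 76 nt in replicate 2. These tails, and the Tfrc tail of 25 nt that held 3 other bases, are printed with bases other than A in capitals, as cDNA.
Tfrc, replicate 1, 19 nt: aaaaaaaaaaaaaaaaaaT
Tfrc, replicate 2, 17 nt, in 2 reads: aaaaaaaaaaaaaaaTT
Tfrc, replicate 2, 25 nt: aaaaaaaaaaaaTaaTaaaaGaaaa
Fth1, replicate 1, 79 nt: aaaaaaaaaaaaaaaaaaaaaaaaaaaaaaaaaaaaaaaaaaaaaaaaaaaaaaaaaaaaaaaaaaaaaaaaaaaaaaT
Fth1, replicate 2, 76 nt: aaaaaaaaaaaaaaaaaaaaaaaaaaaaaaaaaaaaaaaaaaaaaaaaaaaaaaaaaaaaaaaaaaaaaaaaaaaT
The identical Tfrc tails of 17 nt came from 2 reads of replicate 2 and may be 1 molecule. With 4 Tfrc and 12 Fth1 tails in this class, the difference in length is given as values, without a test.

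Ftl1, the ferritin light chain, was nearly unread under its own identifier. It had 0 transcripts in replicate 1, which at a floor of 3 reads allows a share of up to 0.00122% of nuclear transcripts, and 1 in replicate 2, with a tail of 1 nt. No gene tail and no comparison of Ftl1 with Fth1 or Tfrc could therefore be given. Light-chain sequence was nevertheless present in the cells' libraries, since Ftl1-ps1 (ENSMUSG00000062382, chr13:74399694-74407346, plus strand) had 9 and 16 transcripts. Ftl1-ps1 is a copy of Ftl1 that the annotation lists as coding, and 910 aligned nt of the 2 transcripts are 99.6% identical, so reads of one may be counted under the other. Of 19 annotated copies of Ftl1 with at least 300 nt aligned, Ftl1-ps1 was the 1 with transcripts. Fth1 had 3 such copies, Gm6977, Fth-ps2 and Fth-ps3, all with 0 transcripts, and Tfrc had 0 copies. The Fthl17 genes, a ferritin-like family on the X chromosome, were scarcely read: Fthl17c had 2 transcripts, Fthl17b, Fthl17f and the pseudogene Fthl17-ps1 had 1 each, and the other 5 had 0.

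The exons of Ftl1 contain the whole miRNA gene Gm22133 on the same strand (chr7:45458089-45458197) and overlap Gm10252 on the other strand by 355 nt. The exons of Ftl1-ps1 likewise contain Mir692-3 (109 nt) on the same strand and overlap the antisense gene Gm47428 by 329 nt. All 4 of these genes had 0 transcripts. Of 98 coding genes with a same-strand miRNA gene inside an exon, 73 (74.5%) had at least 1 transcript, against 51.8% of the 21840 other coding genes. Ftl1, with its 1 read, counts among the 73, and the levels of these genes were not matched. The part of the overlaps and copies in the low count of Ftl1 was not tested, and the strand setting of the counting is not given in the sources used here.

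The 25 Ftl1-ps1 transcripts, a gene picked after its values were seen, carried long tails too. The geometric mean was 104 nt over 9 transcripts in replicate 1 and 115 nt over 16 in replicate 2 (109.7 ± 7.62 nt, SD, n = 2), and single tails ran from 38 to 202 nt. Set against Fth1, Ftl1-ps1 differed by -6.60 nt in replicate 1 and by 6.79 nt in replicate 2 (0.0953 ± 9.46 nt, SD, n = 2), with opposite signs and within its spread. The exact sign-flip permutation test for that difference gave p = 1.00. Ftl1-ps1 exceeded Tfrc by 25.5 and 69.5 nt in the 2 replicates (47.5 ± 31.1 nt, SD, n = 2), with an exact permutation p = 0.5. None of its 25 tails was at or under 30 nt, and 1 held bases other than A. Few reads stand behind these values.

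Among all 7146 genes tested, the 2 members that could be placed stood far apart. The pooled gene tail of Fth1, 109 nt, was longer than that of 95.5% of genes, with 95% in replicate 1 and 93.9% in replicate 2. The pooled gene tail of Tfrc, 52.5 nt, was longer than that of 13.8% of genes. For Tfrc that place rested on replicate 2, where it was 10.6%, while replicate 1 alone put Tfrc at 51.6%, and without tails under 15 nt it was 36.6%. The genes were also set beside those whose longest coding transcript had a length within 25% of their own. Fth1 (1494 nt) was above 95.8% of 944 such genes, and Tfrc (4890 nt) above 20.5% of 1490. The main Fth1 transcript is shorter (929 nt), and its place among genes of that length was not computed. Genes near the 938 nt of Ftl1-ps1 had a median gene tail of 88.5 nt, against 82.1 nt for those near 1494 nt. By the pooled geometric mean, Fth1 was over 75 nt, the study's boundary between short and long tails, which 52.6% of all tested genes passed, and Tfrc was not. Tfrc was over it in replicate 1 (78.8 nt), by the pooled median (78.0 nt) and when shorter tails than 15 nt were dropped (78.3 nt).

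The genes whose pooled tail distributions were most like that of Fth1, by the largest gap between cumulative curves over the 1517 genes with at least 100 transcripts, were Rps2-ps10 (gap 0.0314), Ucp2 (0.0477) and Gm3788 (0.0525). Rps2-ps10 and Gm3788 are annotated pseudogenes, whose reads may be shared with their parent genes. Ucp2 encodes a mitochondrial carrier protein, and had a gene tail of 107 nt over 760 transcripts. The nearest to Tfrc were Ppig, which encodes a nuclear cyclophilin (0.0633), Tmeff1 (0.0715) and Slc38a4, an amino acid transporter (0.0717), with gene tails of 52.2, 55.2 and 51.2 nt.

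The rest of the iron-handling genes were read from a list of 61 genes in 7 roles, of which 8 had no transcript and 32 had at least 10. Over 75 nt were 21 of the 32 (65.6%), against 52.6% of all tested genes, and the median gene tail of the list was 83.9 nt against 76.4 nt over all genes. Of the 22 with at least 10 transcripts in each replicate, 17 were over 75 nt in replicate 1 and 16 in replicate 2, where 57.3% and 55.7% of all such genes were. With the median in place of the geometric mean, 29 of the 32 were over 75 nt, as were 74.9% of all genes. The middle value over all genes was then 89.0 nt instead of 76.4 nt.

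Of the storage genes, Pcbp1 and Pcbp2, RNA-binding proteins that also deliver iron to ferritin, were read deeply, with 84.2 and 87.2 nt for Pcbp1 and 74.4 and 85.1 nt for Pcbp2 in the 2 replicates. With Fth1, all 3 tested storage genes were over 75 nt when pooled, beside 52.6% of all tested genes, and Pcbp2 was just under it in replicate 1. Ncoa4, the receptor that sends ferritin to the lysosome, had 6 transcripts and Ftmt, mitochondrial ferritin, had 0.

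Of the uptake genes, 0 of 3 were over 75 nt by the pooled geometric mean, beside 52.6% of all tested genes. By the median 3 of 3 were over it, beside 74.9% of all genes. When shorter tails than 15 nt were dropped, 2 of 3 were, beside 72.2%. The middle value of the uptake genes was 69.3, 78.0 and 78.0 nt in turn, each time below that of all genes (76.4, 89.0 and 83.1 nt). Slc11a2 (DMT1), which moves iron out of the endosome, had a pooled gene tail of 74.8 nt over 11 transcripts, with 41.6 nt over 2 of them in replicate 1 and 85.3 nt over 9 in replicate 2. Slc39a14, a transporter of iron not bound to transferrin, had 69.3 nt over 25 transcripts, with 58.1 nt over 10 and 77.9 nt over 15. Each of these 2 lay above 75 nt in replicate 2 and below it in replicate 1, while Tfrc did the opposite, so the place of uptake genes was not the same in the replicates. Steap3, the ferrireductase of the endosome, had 8 transcripts, Slc39a8 had 1, and Tfr2 and Trf had 0. No export gene reached 10 transcripts: Slc40a1 (ferroportin) had 3, Heph 2 and Cp 0.

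Genes of iron control had the shortest tails of the roles, with a median gene tail of 53.3 nt and 0 of 4 over 75 nt when pooled, beside 52.6% of all tested genes. Ireb2 (iron regulatory protein 2) had 53.3 nt over 32 transcripts in replicate 1 and 32.6 nt over 68 in replicate 2. Fbxl5, the ubiquitin ligase adaptor that removes Ireb2 when iron is plentiful, had 61.7 and 54.3 nt over 38 and 68 transcripts. These 2 well-read genes were short in both replicates. Aco1 (iron regulatory protein 1) had 78.3 and 42.2 nt over 14 and 21 transcripts, a split like that of Tfrc. Rc3h1 (roquin), which binds stem-loops in mRNAs, had 30.7 and 90.1 nt over 9 transcripts each, so its replicates disagreed in side. By the median, 2 of the 4 control genes were over 75 nt, beside 74.9% of all genes. Their middle value was then 75.8 nt, against 89.0 nt over all genes.

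**Figure D4:**
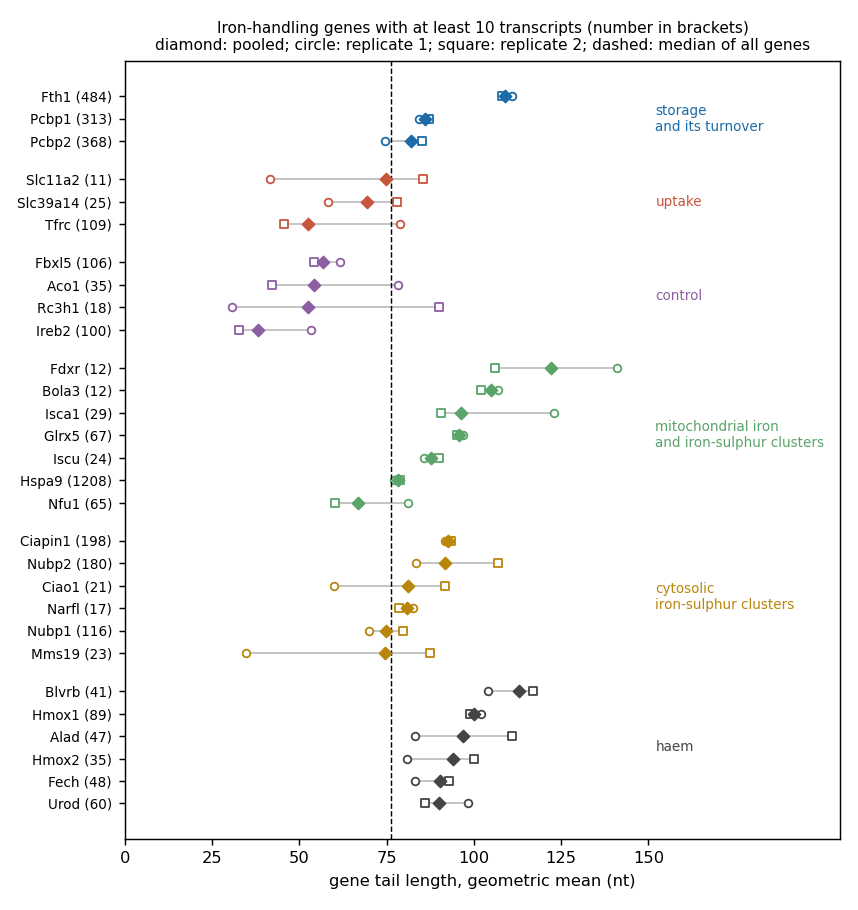
Gene tail length (geometric mean, nt, horizontal axis) of 29 of the 32 iron-handling genes with at least 10 transcripts, grouped by role, with the pooled value as a diamond, replicate 1 as a circle, replicate 2 as a square, the number of transcripts in brackets and the median of all tested genes (76.4 nt) as a dashed line. The 6 haem genes and the 3 storage genes shown have their pooled values to the right of the line, and the 3 uptake and 4 control genes to its left.

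Haem genes were on the long side, with 7 of 7 tested over 75 nt when pooled (median 94.0 nt), 7 of 7 in replicate 1 and 6 of 7 in replicate 2, beside 52.6%, 57.3% and 55.7% of all tested genes. Hmox1, which breaks haem down and frees its iron, had 102 nt over 35 transcripts in replicate 1 and 99.0 nt over 54 in replicate 2. Blvrb, biliverdin reductase B, had 104 and 117 nt over 14 and 27 transcripts. Among the enzymes that build haem, Alad had 83.0 and 111 nt, Urod 98.4 and 86.0 nt, and Fech, which inserts the iron, 83.2 and 92.8 nt. The others of the 12 haem genes had 2 to 8 transcripts. With a minimum of 5 transcripts, 8 of 11 haem genes were over 75 nt (median 90.3 nt), beside 52.5% of all genes. Of the genes so added, Alas1 (37.6 nt), Uros (45.9 nt) and Cpox (35.6 nt) were not over it, and Blvra (91.7 nt) was. The share of 7 of 7 thus depended on the minimum number of transcripts.

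Of the genes that handle mitochondrial iron and build iron-sulphur clusters, 7 of 9 tested were over 75 nt, beside 52.6% of all tested genes. Glrx5, which passes on new clusters, had 97.0 and 95.3 nt over 19 and 48 transcripts, and the scaffold Iscu had 85.8 and 89.9 nt. Hspa9, the mitochondrial HSP70 chaperone, had 77.0 and 78.8 nt over 357 and 851 transcripts. Nfu1, at 66.8 nt when pooled, was not over 75 nt, but its replicates disagreed in side (81.1 and 60.1 nt over 23 and 42 transcripts). In the cytosolic pathway 4 of 6 were over 75 nt, near the share of all genes, and Ciapin1 had 91.8 and 93.4 nt over 94 and 104 transcripts. Nubp1 and Mms19, at 74.7 and 74.5 nt, lay just under it when pooled, and both changed side between replicates. Nubp1 had 69.9 and 79.6 nt over 57 and 59 transcripts, and Mms19 had 34.6 and 87.5 nt over 4 and 19. Ciao1, over 75 nt when pooled, also changed side, with 60.0 and 91.6 nt over 6 and 15.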

How the data were processed

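The authors' deposited table holds 1 row per read, with barcode, gene identifier, number of passes, and raw counts of each kind of base in the tail beside its sequence. Per the labels and the study's methods, consensus reads were made from PacBio passes, split by barcode, mapped to mm10 with minimap2 2.17 and assigned to genes with featureCounts 2.0.1. Tails are the bases clipped beyond the alignment's 3′ end, with neighbouring genomic A tracts added by the authors, who discarded tailless reads, so fully deadenylated mRNA was not measured.

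Tail length was the sum of the base counts, in reads with at least 7 passes. Gene names came from GENCODE vM21 (GRCm38, which is mm10), where 12955 of 12962 identifiers were found, and mitochondrial genes were left out. A gene tail is the geometric mean over at least 10 transcripts. Replicates were compared by the difference within each, with its mean, SD and an exact two-sided sign-flip permutation test. Numbers of transcripts, which are not per length, were not read as levels between genes. A percentile is the share of tested genes with a shorter gene tail, given as a description.

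Members and lists were chosen with earlier results of these data known. Named genes were the members, the listed iron genes with at least 10 transcripts, genes whose symbol begins with Fth or Ftl, and the 3 genes nearest in tail distribution. Untested list members, and genes overlapping Ftl1, were named after their values were seen. Single values of 3 tested list genes are not reported here, though the list's counts include them. Of the 61 listed symbols, 2 (Fdx2 and Ciao3) were matched by an older name. Copies were found by aligning annotated transcripts. Scripts were tested on simulated tails. Computation used scipy 1.17.1, pandas 2.3.3 and numpy 2.4.6 under Python 3.11.15, and plots used matplotlib 3.10.9.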

Additional observations from a re-analysis of the deposited data

Results flagged for a closer look

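After the pass filter, 15.2% of all reads had no gene (14.9% and 15.4% in the 2 replicates) and entered no comparison. Such reads had median tails of 61 and 51 nt, and 26.8% and 31% of them had 1 to 5 nt, a larger share than among nuclear transcripts (1.52% and 2.75%). Whether any came from Ftl1 was not tested, since the table gives no positions.

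Ftl1-ps1 was no member of the set, yet 25 transcripts were assigned to it against 1 for Ftl1, the gene it copies.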

How the results depend on the processing

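The excess of Fth1 over Tfrc was positive under each of the 12 alternatives run, with values from 32.1 to 62.7 nt. Those values belong to replicate 1 alone and replicate 2 alone, settings that hold 1 replicate each. Under every alternative that kept both replicates, the excess was positive in both. It was 33.1 nt with tails of at least 15 nt, 32.5 nt with arithmetic means and 38.2 nt with medians. The number of iron-handling genes over 75 nt was 21 of 32 (65.6%) and ranged from 15 to 31 over its 14 alternatives. The number tested also changed, from 22 to 43. The count of 15 was out of 22 (68.2%), when both replicates had to reach the minimum, beside 55.2% of all genes. The lowest share was 60.5% (26 of 43), with a minimum of 5 transcripts, beside 52.5% of all genes. The count of 31 was out of 32, by the arithmetic mean, under which 87.5% of all genes were over 75 nt. The difference between Ftl1-ps1 and Fth1, a comparison chosen after seeing the data, was within its spread between replicates and also changed sign: a filter of 8 passes gave -0.176 nt, tails of at least 6 or at least 15 nt gave -1.87 nt, and replicate 1 alone gave -6.60 nt. By role, the arithmetic mean put 3 of 3 uptake and 3 of 4 control genes over 75 nt, where the geometric mean put 0. The middle values of these roles by the arithmetic mean, 90.7 and 77.0 nt, lay below the 93.8 nt of all genes. The planned comparisons of Ftl1 with Fth1 and Tfrc gave no value under any setting, because Ftl1 had 1 read, and the annotated pseudogenes Ftl1-ps2 and Ftl2-ps added 0. No paired analysis was possible because there is 1 group and so no pairing of groups by replicate number. The differences between genes were taken within each replicate. Depth limits Ftl1 (0 and 1 transcripts), Ftl1-ps1 (9 and 16) and Tfrc (28 and 81).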
